A study of Homo sapiens with 12 samples.

Results

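Chromosome 18 of the human embryonic stem cell line H9 was described here by its lamina-associated domains (LADs), DNA in contact with the protein meshwork that lies under the nuclear envelope. All intervals of chromosome 18 were taken from the deposited lists of both states, which gave 275 naive and 133 primed LADs, or 408 of the 14849 LADs in the series. The naive group was H9 kept in RSeT medium and the primed group was H9 kept in mTeSR medium, both without further treatment. In each state 3 libraries were made with an antibody against lamin B1 (LMNB1), to which Dam methylase fused to protein A then binds (pA-DamID), and 3 with Dam only, which serves as the control. Each state is represented by 1 list for all of its libraries, so the differences below have no replicate error and no p-value. H9 is a single cell line, and the labels alone assign the naive and primed states, since the lists hold no expression values against which markers could be checked. The lists hold no read counts, so the depth behind a window is unknown.

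The nuclear lamina lines the inner nuclear membrane, and the DNA that touches it is mostly gene-poor, late-replicating and weakly transcribed. Genes can leave the lamina when a cell changes state, and domains kept at the lamina in many cell types are usually the longest and poorest in genes. Chromosome 18 is a gene-poor chromosome known to lie towards the nuclear periphery in many human cells. Dam methylates the adenine of GATC, so contact with lamin B1 is read out as methylation at GATC sites nearby.

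The promoters of 6 genes are shown because their placement differs between the states or marks the range of placements on the chromosome. Each runs 5′ to 3′ from 250 bases before to 50 bases after the transcript start in RefSeq (GRCh38.p14, whose primary assembly is that of hg38), with GATC in capitals. GATC reads the same on both strands, and its copies cannot overlap. It occurred in 41.7% of all 27195 promoters of this length on the chromosomes analysed. The first 3 genes are the longest in LADs of the naive state only, of the primed state only and of both, and LDLRAD4 is the longest member of the gene lists used below with 0% of its body in LADs of either state. L3MBTL4 and RNF138 were added after their values were seen, as the longest genes whose start also lay in LADs of 1 state only.
PTPRM (receptor tyrosine phosphatase mu, chr18:7567066-7567365, plus strand): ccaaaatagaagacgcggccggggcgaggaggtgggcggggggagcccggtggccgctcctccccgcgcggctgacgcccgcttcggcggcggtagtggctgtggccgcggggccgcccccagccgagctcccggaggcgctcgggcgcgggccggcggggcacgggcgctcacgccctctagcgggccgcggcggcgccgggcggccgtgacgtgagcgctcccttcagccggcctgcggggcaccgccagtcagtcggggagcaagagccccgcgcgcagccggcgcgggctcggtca
RNF125 (E3 ubiquitin ligase, chr18:32018575-32018874, plus strand): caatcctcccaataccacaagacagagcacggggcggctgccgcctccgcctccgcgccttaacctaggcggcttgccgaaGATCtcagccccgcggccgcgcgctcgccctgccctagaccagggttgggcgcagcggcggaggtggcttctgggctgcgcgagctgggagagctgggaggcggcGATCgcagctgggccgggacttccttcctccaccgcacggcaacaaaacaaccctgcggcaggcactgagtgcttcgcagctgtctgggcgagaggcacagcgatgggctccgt
DCC (netrin receptor, chr18:52339947-52340246, plus strand): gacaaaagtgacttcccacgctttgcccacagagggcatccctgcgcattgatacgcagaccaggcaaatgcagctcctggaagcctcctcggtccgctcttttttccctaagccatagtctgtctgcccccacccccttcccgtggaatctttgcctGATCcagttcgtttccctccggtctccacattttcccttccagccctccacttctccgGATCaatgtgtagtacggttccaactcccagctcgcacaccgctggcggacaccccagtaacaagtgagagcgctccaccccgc
LDLRAD4 (inhibitor of TGF-beta signalling, chr18:13217722-13218021, plus strand): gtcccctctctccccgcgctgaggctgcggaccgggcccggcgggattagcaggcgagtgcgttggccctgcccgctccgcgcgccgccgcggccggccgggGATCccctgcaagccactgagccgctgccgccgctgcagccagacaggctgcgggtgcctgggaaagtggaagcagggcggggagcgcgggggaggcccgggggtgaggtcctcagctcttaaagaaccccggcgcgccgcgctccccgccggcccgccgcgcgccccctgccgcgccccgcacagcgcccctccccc
L3MBTL4 (MBT-domain protein, chr18:6414862-6415161, minus strand): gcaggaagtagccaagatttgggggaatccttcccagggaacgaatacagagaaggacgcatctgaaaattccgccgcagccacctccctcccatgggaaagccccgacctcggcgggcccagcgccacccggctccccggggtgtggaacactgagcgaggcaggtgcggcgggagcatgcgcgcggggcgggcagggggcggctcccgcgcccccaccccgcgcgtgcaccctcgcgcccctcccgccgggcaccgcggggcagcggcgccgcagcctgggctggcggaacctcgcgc
RNF138 (E3 ubiquitin ligase, chr18:32091624-32091923, plus strand): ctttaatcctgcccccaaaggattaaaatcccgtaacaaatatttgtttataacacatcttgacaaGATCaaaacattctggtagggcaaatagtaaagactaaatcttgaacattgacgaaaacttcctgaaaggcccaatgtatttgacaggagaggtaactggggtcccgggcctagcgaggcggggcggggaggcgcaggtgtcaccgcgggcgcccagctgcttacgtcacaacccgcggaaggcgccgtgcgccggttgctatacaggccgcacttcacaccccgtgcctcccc

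The start of L3MBTL4 lay in a naive but not in a primed LAD, and that of RNF138 in a primed but not in a naive LAD. The start of PTPRM lay outside LADs in both states although 81.8% of its body lay in naive and 0% in primed LADs. The starts of RNF125 and DCC lay in LADs of both states and that of LDLRAD4 in neither. The windows of PTPRM and L3MBTL4 held 0 GATC sites, those of RNF125 and DCC 2 each, and those of LDLRAD4 and RNF138 1 each. GC content was 80.7% for PTPRM, 73.7% for L3MBTL4, 69.0% for RNF125, 53.3% for RNF138, 58.0% for DCC and 79.0% for LDLRAD4. The lists resolve contact to windows of 10 kb, far wider than these promoters.

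Naive LADs covered more of chromosome 18 than primed LADs, and nearly all primed lamina DNA was also lamina DNA in naive cells. Naive LADs held 44.99 Mb of the 80.2 Mb span, or 56.1% (exact binomial interval over 8025 windows of 10 kb 55.0% to 57.2%). Primed LADs held 37.67 Mb, or 46.9% (45.8% to 48.0%). Neighbouring windows are not independent, so these intervals are too narrow, and they do not cover replicate error. In 36.59 Mb both lists had a LAD, that is in 81.3% of the naive bases and 97.1% of the primed bases. State-specific DNA came to 8.40 Mb in naive LADs, against 1.08 Mb in primed LADs. In windows this was 10.5% of chromosome 18 in naive LADs only, where 6.42% of the windows of all 23 chromosomes were, and 1.35% in primed LADs only, where 2.49% of all windows were. Naive coverage was 9.12 points higher than primed coverage, and 5.86 points higher without LADs under 100 kb.

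The short arm carried little lamina DNA in primed cells. The arms were divided at the middle of the longest stretch with neither an annotated gene nor a LAD, 5.56 Mb from 15390001 to 20946905, which includes the centromere and cannot be read as free of lamina contact. Naive LADs took up 28.2% of the short arm, against 9.85% for primed LADs (18.4 points apart). Naive LADs took up 64.2% of the long arm, against 57.8% for primed LADs (6.41 points apart). In the short arm 3.47 Mb of the 5.13 Mb of naive LADs (67.6%) had no primed counterpart, whereas in the long arm 4.93 Mb of 39.86 Mb (12.4%) had none. Protein-coding genes were denser in the short arm (4.55 per Mb outside the centromere stretch) than in the long arm (3.37 per Mb). Without LADs under 100 kb, the differences were 11.9 points in the short and 4.09 points in the long arm.

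Along the chromosome the difference was concentrated in a few places. Of 81 steps of 1 Mb, 27 were covered at 95% or more in both states and 18 at 0% in both. Naive coverage was higher by at least 20 points in 13 steps (16.0%), where 10.1% of the 3043 steps of all chromosomes passed this limit. Primed coverage was higher by at least 20 points in 0 steps, where 1.94% of all steps were. The greatest excess of primed coverage in a step was 12 points, in the step that starts at 32000001 and holds RNF125 and RNF138. The 13 steps formed 5 runs, and those of more than 2 steps were a 5 Mb run in the short arm (4000001 to 9000000) and a 4 Mb run in the long arm (24000001 to 28000000). These runs together held 5.22 Mb, or 62.1%, of the naive-only DNA of the chromosome. Without them the naive minus primed difference was 2.96 points over the chromosome, 1.97 points in the short and 3.19 points in the long arm, and 3.18 Mb remained in naive LADs only, values added after the data were seen. The runs were chosen for their naive excess, so a smaller difference without them was fixed by that choice. Runs of 4 or more such steps numbered 15 over all chromosomes, of which 9 had 5 steps, the longest length found.

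**Figure D1:**
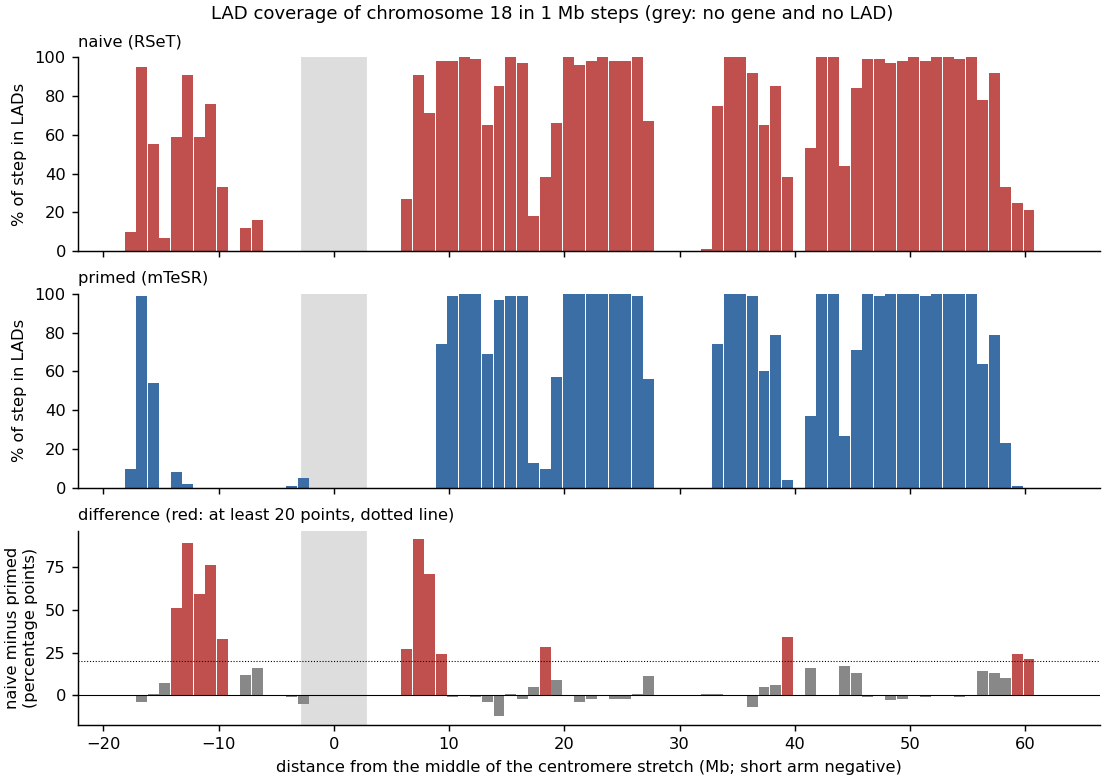
Share of each 1 Mb step of chromosome 18 in naive LADs (top) and primed LADs (middle), in percent, and the naive minus primed difference in percentage points (bottom), against the distance from the middle of the centromere stretch in Mb. The 13 red steps differ by at least 20 points, and the tallest groups of them lie on either side of the centromere stretch, which is shaded grey.

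The short-arm run was 63.6% covered in naive and 2.0% in primed. Naive coverage of its 5 steps was 59%, 91%, 59%, 76% and 33%, against 8%, 2%, 0%, 0% and 0% in primed. In naive it held 43 LADs, the longest 420 kb, against 9 primed LADs with 0.10 Mb in all. It was made of many short naive LADs in DNA that was almost free of primed LADs. Of its 11 protein-coding genes, 7 lay in naive LADs only, namely AKAIN1, ZBTB14, EPB41L3, L3MBTL4, LAMA1, LRRC30 and PTPRM. EPB41L3 encodes protein 4.1B, which links membrane proteins to the cytoskeleton, LAMA1 the alpha 1 chain of laminin, a basement membrane protein, and PTPRM an adhesive receptor phosphatase. Of L3MBTL4 (5954717 to 6415259) 95.7% and of EPB41L3 (5392386 to 5630663) 95.8% lay in naive LADs, and of both 0% in primed LADs. The small genes AKAIN1, which encodes an inhibitor of protein kinase A anchoring, ZBTB14, a zinc finger transcription factor gene, and LRRC30 had 100% of their length in naive and 0% in primed LADs. Of these 3, ZBTB14 was 0 points apart without LADs under 100 kb. LAMA1 was just over the limit of 50% in naive, at 50.1%, against 0% in primed, and was 0 points apart without LADs under 100 kb. TMEM200C stood just below it, at 43.8% in naive and 0% in primed, and ARHGAP28 was at 16.1% and 0%. RAB12 and MTCL1, at the centromere-facing end, were at 0% in both states. The 2 longest naive-only stretches of the chromosome lay here, 420 kb (6070001 to 6490000) over L3MBTL4 and 310 kb (5550001 to 5860000) from EPB41L3 onwards.

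The long-arm run joined onto a domain that both states shared. Naive coverage of its 4 steps was 27%, 91%, 71% and 98%, against 0%, 0%, 0% and 74% in primed, or 71.8% against 18.5% over the run. From the centromere stretch outwards, the naive list was empty up to 24530000 and the primed list up to 27020000. Of its 12 protein-coding genes, 6 lay in naive LADs only. These were ZNF521, a zinc finger transcription factor gene of progenitor cells (95.8% in naive and 0% in primed), PSMA8, a testis-specific proteasome subunit gene (100% and 0%), and TAF4B, a germ cell subunit of TFIID (66.6% and 0%), which was 0 points apart without LADs under 100 kb. The others were KCTD1, a transcriptional repressor gene (66.7% and 0%), AQP4, the astrocyte water channel gene (100% and 0%), and CHST9, an N-acetylgalactosamine sulfotransferase gene (100% and 41.4%). KCTD1, like TAF4B, was 0 points apart without LADs under 100 kb. CHST9 lay across the primed border and was in LADs of both states with gaps under 50 kb closed. SS18, a chromatin remodelling subunit gene in the middle of the run, was at 0% in both states, as were TTC39C, CABYR, OSBPL1A, IMPACT and HRH4 before its naive border. A 300 kb naive-only stretch (25680001 to 25980000) held no protein-coding gene, one of 220 kb (25130001 to 25350000) lay over ZNF521, and one of 200 kb (26820001 to 27020000) held AQP4 and reached into CHST9.

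**Figure D2:**
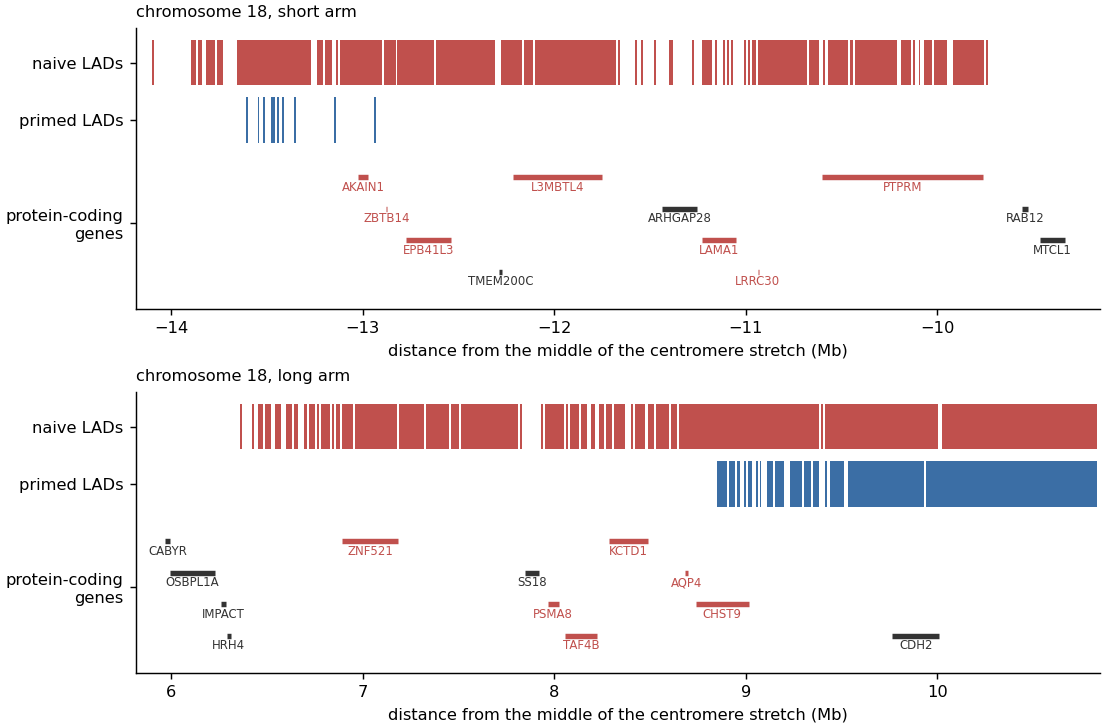
LADs as 10 kb windows in naive (red) and primed (blue) and protein-coding genes in the short-arm run of higher naive steps and in the long-arm run with the 1 Mb after it, against the distance from the middle of the centromere stretch in Mb. Genes in red lay in naive LADs only, those in black did not, and primed LADs in the upper map are limited to scattered windows.

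The remaining runs were smaller. In the step from 57000001, naive coverage was 38% against 4% in primed, and it held ONECUT2, a homeobox transcription factor gene (56.0% in naive and 0% in primed), and the sialyltransferase gene ST8SIA3 (54.5% and 0%), which is named after its values were seen and stayed naive-only under 1 of the 4 joins and filters of LADs. ONECUT2 was 0 points apart without LADs under 100 kb. In the step from 36000001, naive coverage was 38% against 10% in primed, and FHOD3, a formin gene of cardiac muscle, was at 43.6% and 0%. In the run from 77000001 to 79000000, 23% was covered in naive and 0.5% in primed, in 28 naive LADs of at most 50 kb. It overlapped MBP, the myelin basic protein gene, and SALL3, a zinc finger regulator gene, which were at 0% in both states, and GALR1, a galanin receptor gene, at 0% in naive and 35.6% in primed.

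Naive LADs were shorter on average and were broken more often. Naive LADs averaged 164 kb and primed LADs 283 kb, with a median of 20 kb in both. A single window was the whole length of 108 of 275 naive LADs and of 54 of 133 primed ones. There were 11 naive and 10 primed LADs of at least 1 Mb, but their share of the LAD bases was 47.6% in naive and 81.4% in primed. LADs from 100 kb to under 1 Mb took 41.1% of the naive bases and 12.1% of the primed bases. The longest naive LAD was 2.79 Mb (51420001 to 54210000), with DCC inside, and the longest primed LAD 6.96 Mb (37740001 to 44700000). The next naive LADs, of 2.55 Mb with RTTN, CD226 and SOCS6 and of 2.21 Mb with CDH20, RNF152 and MC4R, lay wholly in primed LADs, as did the longest. Most gaps were narrow. Of the gaps between LADs, 229 of 274 in naive and 102 of 132 in primed were under 50 kb. With LADs less than 50 kb apart joined, 46 naive and 31 primed LADs remained, and the share of bases in LADs of at least 1 Mb was 89.8% in naive and 96.6% in primed.

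**Figure D3:**
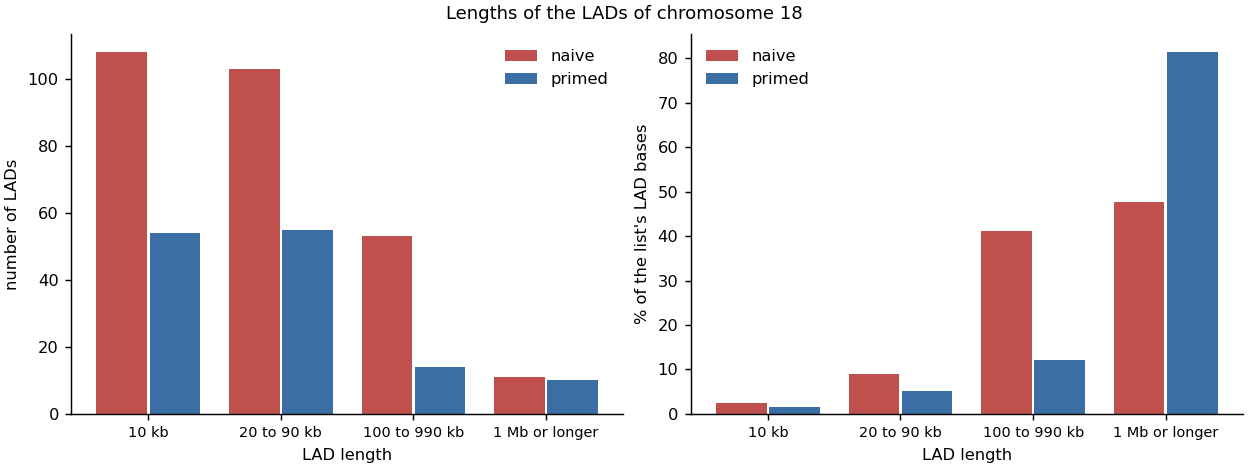
Number of chromosome 18 LADs (left) and percent of the LAD bases of each list (right) by LAD length, for naive (red) and primed (blue). The longest class has 11 naive and 10 primed LADs but takes 47.6% of the naive and 81.4% of the primed bases.

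Long LADs of either state lay almost entirely in LADs of the other, and the primed ones were cut by single windows in naive cells. Of the 21.43 Mb in naive LADs of at least 1 Mb, 99.3% lay in primed LADs. They held 8 stretches outside primed LADs, 6 of them single windows, with stretches at LAD ends counted. Of the 30.66 Mb in primed LADs of at least 1 Mb, 98.4% lay in naive LADs. These 10 primed LADs met 45 naive pieces and 39 stretches outside naive LADs, of which 34 were single windows. Some of these stretches lay at the end of a primed LAD and did not split it, among them the longest, of 70 kb. The longest primed LAD, with the small GTPase gene RIT2, the lipid kinase gene PIK3C3 and the synaptotagmin gene SYT4, met 11 naive LADs split by 10 single-window gaps. The primed LAD of 4.95 Mb (69210001 to 74160000), with DOK6, RTTN, NETO1 and CD226 among its genes, met 5 naive LADs with 4 single-window gaps. That of 3.69 Mb (65510001 to 69200000), with CCDC102B, CDH7, CDH19 and TMX3, met 7 naive LADs with 6 single-window gaps. A single long primed LAD lay in the short arm, 1.41 Mb (1130001 to 2540000) with no whole protein-coding gene, and met 3 naive LADs. Of 550 naive LAD borders, 149 (27.1%) lay within 50 kb of a primed border of the same side, and of 266 primed borders, 163 (61.3%) lay within 50 kb of a naive one. The exact window was shared by 33 borders. Border shares are not given for the other chromosomes.

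State-only DNA was placed differently for the 2 states. Of the 286 naive-only stretches, 172 touched no primed LAD, and these held 5.88 Mb, or 70.0%, of the naive-only bases. Of the 89 primed-only stretches, 59 had naive LADs on both sides, and these held 0.67 Mb, or 62.0%, of the primed-only bases. At least 100 kb was reached by 15 naive-only stretches, the longest of 420 kb, and by 0 primed-only stretches, the longest of 70 kb. A single window was the whole of 158 naive-only and 77 primed-only stretches. The 2 long runs held 62.1% of the naive-only bases, so naive-only stretches are not independent of each other. Shares by neighbouring LADs are not given for other chromosomes, so they are not shown to be particular to chromosome 18.

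Naive-only windows held protein-coding gene starts at a share near that of shared windows, and primed-only windows at one near that of windows in neither list. A start lay in 14 of 840 naive-only windows (1.67%, exact binomial interval 0.914% to 2.78%) and in 6 of 108 primed-only windows (5.56%, 2.07% to 11.7%). It lay in 52 of 3659 shared windows (1.42%, 1.06% to 1.86%) and in 151 of 3418 windows in neither list (4.42%, 3.75% to 5.16%). On the other 22 chromosomes these shares were 2.43% in naive-only, 5.14% in primed-only, 1.76% in shared windows and 7.44% in neither. Neighbouring windows are not independent, so the intervals given with gene starts are too narrow. Of the 49 windows of primed LADs of at least 1 Mb that lay outside naive LADs, 4 held a start (8.16%, 2.27% to 19.6%). Among all windows of those LADs, these 49 included, the share was 1.40%. On the other 22 chromosomes the same 2 shares were 5.41% (141 of 2608 windows) and 1.69%, so the contrast was not particular to chromosome 18. The 49 windows include ends of primed LADs, and the start of RNF138 lay in such an end. The 6 genes that started in primed-only windows were ADCYAP1, CDH2, RNF138, MBD2, POLI and PTGR3. CDH2 encodes N-cadherin, MBD2 a methyl-CpG binding protein and POLI a translesion DNA polymerase. CDH2 had 97.1% of its length in naive and 95.9% in primed LADs, but its start lay in a 20 kb break of the naive LADs (28170001 to 28190000). MBD2 was at 79.9% in naive and 100% in primed, and POLI at 60.4% and 100%, with breaks of 20 kb at each start.

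Of 270 protein-coding genes of the chromosome, 89 lay in naive LADs (33.0%, exact binomial interval 27.4% to 38.9%) and 76 in primed LADs (28.1%, 22.9% to 33.9%), when at least 50% of the gene body had to be covered. Genes that share a LAD are not independent, so these intervals are too narrow. On all chromosomes together naive LADs held 18.9% of protein-coding genes and primed LADs 17.3%. Both states shared 70 genes (25.9%), against 15.4% on all chromosomes. A further 19 (7.04%) lay in naive LADs only, where 3.44% of the 19974 protein-coding genes of all chromosomes did, and 6 (2.22%) in primed LADs only, where 1.89% did. The 2 long runs held 13 of the 19 naive-only genes, so these genes are not independent of each other. Naive-only genes had a median length of 59.5 kb and primed-only genes 26.9 kb, against 49.8 kb and 21.3 kb on all chromosomes. On chromosome 18 the median was 73.8 kb for genes in LADs of both states and 48.3 kb for genes in neither. Of the naive-only genes with a known start, 10 had it in naive LADs only, 6 in neither list and 1 in both. Of the 6 primed-only genes, 3 had it in primed LADs only.

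Outside the runs described above, 4 more genes lay in naive LADs only. CYB5A, the cytochrome b5 gene, had 100% of its length in naive and 0% in primed LADs, and its neighbour C18orf63 had 76.9% and 0%. GRP, which encodes gastrin-releasing peptide, was at 86.3% and 0%, and TNFRSF11A, the gene of the RANK receptor of osteoclast precursors, at 77.7% and 0%. C18orf63 and GRP were 0 points apart without LADs under 50 kb, and CYB5A and TNFRSF11A without LADs under 100 kb.

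The primed-only genes lay in short stretches. RNF138 (32091874 to 32131561) had 0% of its length in naive and 100% in primed LADs, and RNF125 next to it (32018825 to 32090806) had 1.63% and 72.2%. The longest stretches in primed LADs only were one of 70 kb (32090001 to 32160000) over RNF138 and one of 40 kb (32020001 to 32060000) within RNF125. Without LADs under 100 kb, RNF125 was at -1.12 points, naive minus primed. PMAIP1, the gene of the pro-apoptotic BH3 protein NOXA (59899996 to 59904305), was at 0% in naive and 99.9% in primed, since the primed LAD began 1 window before the naive one. With LADs less than 100 kb apart joined, PMAIP1 was 0 points apart. ADCYAP1, the gene of the neuropeptide PACAP, was at 0% and 72.0%, and PTGR3, a prostaglandin reductase gene, at 0% and 65.1%, and both genes were 0 points apart under all 4 joins and filters of LADs. DSG2, which encodes a desmosomal cadherin found outside skin as well, was at 42.9% in naive and 78.7% in primed, and was 42.9 points higher in naive once LADs under 50 kb were left out.

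**Figure D4:**
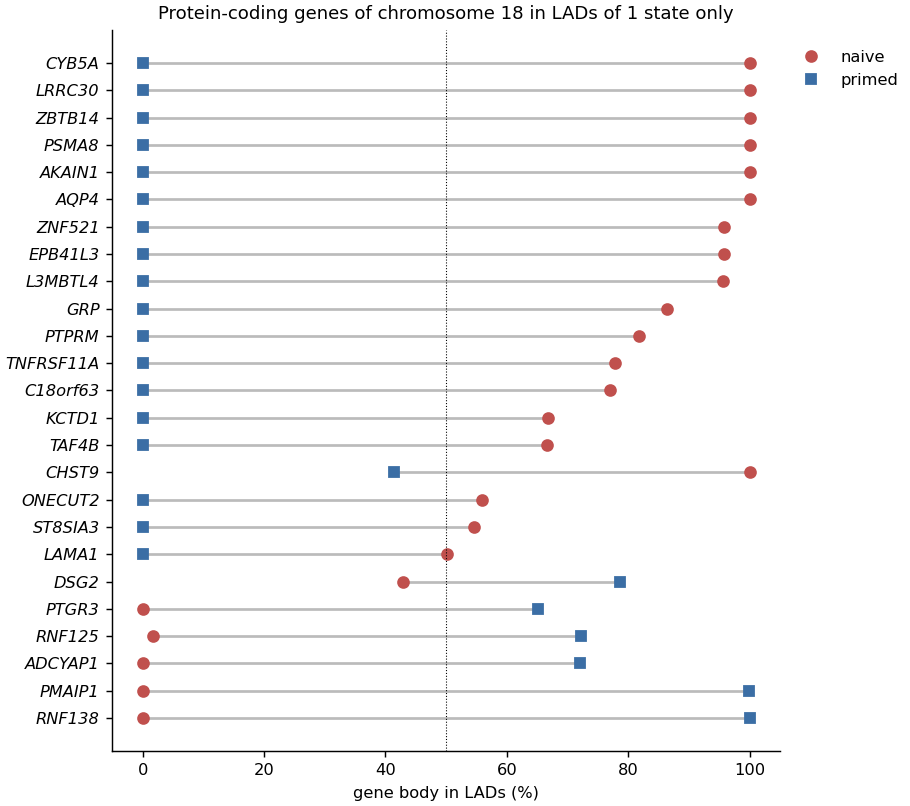
Percent of the gene body in naive LADs (red circles) and primed LADs (blue squares) for the 25 protein-coding genes of chromosome 18 that lay in LADs of 1 state only, with the limit of 50% as a dotted line. Nearly all naive-only genes were at 0% in primed, with CHST9 at 41.4% the exception.

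The clade B serpins and the classical and desmosomal cadherins, all in the long arm, were at the lamina in both states except for DSG2. The counts below stand beside 89 of 270 genes in naive LADs and 76 in primed LADs on the whole chromosome, where the median covered share was 0% in both. All 10 clade B serpins, a cluster of protease inhibitor genes, were covered at 100% in both states. They shared the same naive LAD and the same primed LAD, so they do not count as 10 separate cases. All 4 classical cadherins were in LADs of both, CDH20 and CDH7 at 100% in each and CDH19 at 90.3% in naive and 100% in primed. Of the 7 desmosomal cadherins, which hold epidermal and other epithelial cells together, 6 were in naive LADs and all 7 in primed LADs. The 6 in naive LADs shared the same primed LAD, so they are not independent of each other either. Among 14 genes of neuronal receptors, ligands and synapses, naive LADs held 8 and primed LADs 7, with median covered shares of 84.1% and 53.8%. DCC, NETO1, CBLN2 and SYT4 were at 100% in both, GRP and PTPRM in naive only and ADCYAP1 in primed only. The DLG-associated synaptic gene DLGAP1 stayed below the limit, at 20.8% in naive and 0% in primed.

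Regulators of development and signalling were divided. Of 9 developmental transcription factor genes, naive LADs held 4 and primed LADs 2 (medians 20.2% and 0%). SETBP1 was in both (100% in naive and 97.4% in primed), and so was TSHZ1 (87.4% and 50.5%), whereas ZNF521 and ONECUT2 were in naive only. TCF4, a bHLH transcription factor gene, was at 20.2% and 15.9%, and GATA6, an endoderm regulator gene, at 0% in both. None of the 6 genes of SMAD and TGF-beta signalling was in LADs, and SMAD2, SMAD4, SMAD7, TGIF1, TWSG1 and LDLRAD4 were each at 0% in both states. Of 3 melanocortin receptor genes, MC4R was at 100% in both states, and MC2R and MC5R were at 0% in both. Of 5 laminin and matrix genes, naive LADs held 2 and primed LADs 1. CCBE1, a lymphatic growth factor processing gene, was in both (92.9% in naive and 55.4% in primed), LAMA1 in naive only, and LAMA3 at 0% in both.

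Of 12 genes of the proteasome, ribosome, mitochondria and related functions, naive LADs held PSMA8 and primed LADs 0. Of 10 cell cycle and chromosome segregation genes, MAPRE2, a microtubule end-binding protein gene, was in LADs of both states (94.0% in naive and 64.0% in primed) and the other 9 in neither. Of 8 chromatin genes, naive LADs held 3 and primed LADs 2. MBD2 and ASXL3, a Polycomb-associated gene, were in both and L3MBTL4 in naive only, and SMCHD1, which acts in X inactivation, and CXXC1, a CpG-binding subunit of a histone methyltransferase, were at 0% in both. Of 8 apoptosis and immune genes, 4 were in LADs of each state. BCL2, an inhibitor of apoptosis, was at 94.9% in naive and 61.0% in primed, and CD226 and SOCS6 were at 100% in both, whereas TNFRSF11A was in naive only and PMAIP1 in primed only. Of 8 ion and solute transport genes, naive LADs held 2 and primed LADs 1. SLC14A2, a urea transporter gene, was in both (95.4% in naive and 76.0% in primed) and AQP4 in naive only (100% and 0%). PIEZO2, a mechanosensitive channel gene, stayed below the limit, at 31.2% and 0%.

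Long spans without LADs took up less of the chromosome in naive than in primed cells. Of at least 1 Mb, the naive list left 6 spans free, 24.2 Mb in all, with 0.06 Mb of primed LADs inside. The primed list left 8, 36.6 Mb in all, with 5.92 Mb of naive LADs inside. In the primed-free span from 5240001 to 14840000, 2.66 Mb (27.7%) was in naive LADs. Neither list had a LAD in 7 spans of this size, 23.6 Mb in all. The longest of these ran 9.14 Mb (15390001 to 24530000) and includes the centromere stretch, so an empty list there does not show absent contact. The next, of 4.88 Mb (45830001 to 50710000), held 31 protein-coding gene midpoints, or 6.35 per Mb, among them those of SMAD2 and SMAD7. In shared LAD windows there were 1.78 protein-coding gene midpoints per Mb, in naive-only windows 2.86, in primed-only windows 8.33 and in windows of neither list 5.03. The primed-only value rests on only 9 midpoints in 1.08 Mb. Windows of neither list include the centromere stretch, 5.56 Mb without an annotated gene, which lowers their value.

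Of 463 lncRNA genes on the chromosome, 58 (12.5%) lay in naive LADs only, where 7.32% of the 18177 lncRNA genes of all chromosomes did, and 6 (1.30%) in primed LADs only, where 1.6% did. LADs of both states held 181 (39.1%), where 30.4% of all lncRNA genes were. The longest naive-only lncRNA gene was MIR3976HG (5748799 to 5914407), at 81.9% in naive and 0% in primed, in the short-arm run. AQP4-AS1 (26865308 to 26935946), which is antisense to AQP4, was at 100% in naive and 0% in primed, in the long-arm run. Of 35 miRNA genes, 3 (8.57%) lay in naive LADs only, where 3.66% of the 1911 miRNA genes of all chromosomes did, and 0 in primed LADs only, where 2.15% did. LADs of both states held 9 (25.7%), against 17.0% of all miRNA genes.

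Set beside the other chromosomes, chromosome 18 had the widest coverage difference of the 23 in points, at 9.12, followed by chromosome 10 at 8.04. It ranked 6 of 23 in naive and 10 of 23 in primed coverage. By the naive-only share of the naive bases, 18.7%, chromosome 18 ranked 10 of 23. Chromosomes 22 and 19, which ranked 1 and 2 by this share, had 3 naive-only windows each. The other 22 chromosomes together had 47.2% of their length in naive and 43.5% in primed LADs, which is 3.79 points apart. Chromosomes 13, 4 and 8 have the gene densities nearest to its 3.36 protein-coding genes per Mb, at 2.96, 4.05 and 4.93. Their naive minus primed differences were 1.15, -0.88 and 4.94 points, and a relation to gene density was not tested. The number of naive LADs per primed LAD was 2.07 on chromosome 18, against 1.67, 1.94 and 1.62 on chromosomes 13, 4 and 8 and 1.61 on the other 22 together. The share of naive bases in LADs of at least 1 Mb was 47.6% on chromosome 18 and on the others alike, and that of primed bases was 81.4% on chromosome 18 against 73.2% on the others. These are ranks of 1 pair of lists, and no difference between chromosomes was tested.

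**Figure D5:**
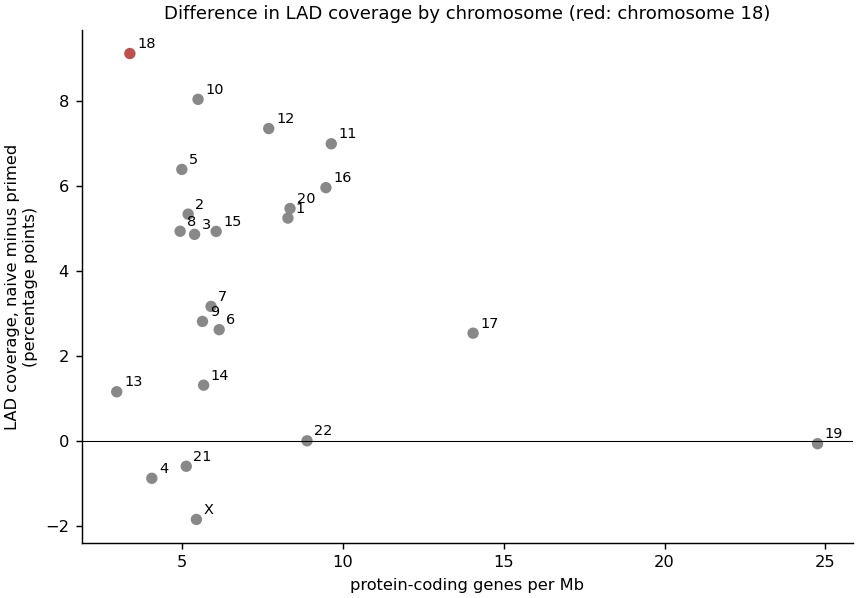
Naive minus primed LAD coverage of each of the 23 chromosomes, in percentage points, against protein-coding genes per Mb. Chromosome 18 (red) lies highest at 9.12 points, while chromosomes 13 and 4, with the most similar gene densities, lie at 1.15 and -0.88 points.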

How the data were processed

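The LAD lists were used as the authors deposited them, under names that call them simple, whereas the labels call the lists final. What sets these apart is not known, and every coverage and length value rests on the simple lists. Per the labels, DNA of 3 LMNB1 and 3 Dam-only libraries per state was sequenced, and BWA, SICER, SAMtools 1.10 and the build hg38 appear in the submitters' processing notes. The sources used here do not give the thresholds or how libraries were combined. The deposited lists hold chromosome, start and end with no score, and all 9178 naive and 5671 primed intervals began and ended at multiples of 10 kb. Coverage was computed from these windows on the autosomes and X, each from its first base to its last gene or LAD. Gene positions were those of RefSeq for GRCh38.p14, and 234 of the 270 protein-coding genes of chromosome 18 matched a promoter. Coordinates are 1-based.

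The chromosome, the 13 gene lists (104 genes) and the rule for named genes were chosen with earlier results of these data known. The rule named up to 15 genes per direction by difference in covered share, the genes of the longest stretches and LADs, and list members that differed. Replicates could not be compared, so no test was made between states. Alternatives joined or left out short gaps and LADs, or changed the limits. As a check of the code, the windows of 200 of 19974 genes were switched in a copy of the primed list. The code recovered 200 and called 0 genes outside the switched windows. No reads or noise were simulated, so this outcome was fixed by construction and does not bear on the calls between states. Scripts ran in Python 3.11.15 with SciPy 1.17.1, pandas 2.3.3, numpy 2.4.6 and, for plots, matplotlib 3.10.9.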

Additional observations from a re-analysis of the deposited data

How the results depend on the processing

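Naive coverage stayed above primed coverage, on the chromosome and in both arms, under every alternative run. With LADs less than 50 kb apart joined, coverage was 60.4% in naive and 49.0% in primed (11.5 points, short arm 23.6, long arm 7.94), with 46 and 31 LADs, 89.8% and 96.6% of bases in LADs of at least 1 Mb and 0.44 Mb in primed only. With LADs less than 100 kb apart joined, it was 61.9% and 49.8% (12.1 points, arms 24.8 and 8.34), with 27 and 20 LADs, 95.1% and 96.3% of bases in long LADs, 0.62 Mb and 3 genes in primed only and 1 step higher in primed. Without LADs under 50 kb, it was 52.4% and 44.9% (7.50 points, arms 14.5 and 5.44), with 99 and 38 LADs and 50.9% and 85.0% of bases in long LADs. Without LADs under 100 kb, it was 49.7% and 43.9% (5.86 points, arms 11.9 and 4.09), with 64 and 24 LADs and 53.7% and 87.1% of bases in long LADs. Without the centromere stretch, coverage was 60.2% and 50.4% (9.80 points, short arm 21.7). Without the 2 longest runs of higher naive steps, added after seeing the data, it was 54.7% and 51.7% (2.96 points, arms 1.97 and 3.19), with 3.18 Mb in naive only. A limit of 10 points gave 22 steps higher in naive and 1 in primed, and one of 30 points gave 8 in naive. With all annotated genes, 110 were in naive LADs only and 18 in primed LADs only. The number of protein-coding genes in naive LADs only stayed within 1.5 times the 19 reported, between 14 and 27, in the alternatives on protein-coding genes. Of these 19 genes, 8 stayed naive-only under each of the 4 joins and filters of LADs, and of the 6 primed-only genes 1, RNF138, did, while ADCYAP1 and PTGR3 kept it under 0 of them. RNF125 and PMAIP1 kept the primed-only call in 3 of 4. For ZBTB14, KCTD1, ONECUT2, TNFRSF11A and CYB5A the call held in 3 of 4 and was lost without LADs under 100 kb. The call held in 2 of 4 for LAMA1, TAF4B, CHST9, GRP and C18orf63 and in 1 of 4 for ST8SIA3. DSG2 turned to naive without LADs under 50 kb and without LADs under 100 kb, at 42.9 points in each. These shifts follow from the construction of each setting.

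No paired analysis was possible because each state has 1 list in which its libraries are combined, and for the same reason no replicate was left out. Depth, mappability and GATC density per window are unknown, so an uncalled window is not evidence of absent contact.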

Other observations

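The 3 miRNA genes in naive LADs only lay in the 2 long runs, MIR3976 and MIR4317 in the short arm and MIR8057 in the long arm, each at 100% in naive and 0% in primed. Their mature sequences from RefSeq (GRCh38.p14) are given 5′ to 3′ with the seed, bases 2 to 8, in capitals, and the 3 seeds differ.
hsa-miR-3976: uAUAGAGAgcaggaagauuaaugu
hsa-miR-4317: aCAUUGCCagggaguuu
hsa-miR-8057: gUGGCUCUguaguaagaugga

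The median GC content over the 300-base promoters was 65.0% for 17 genes in naive LADs only, 70.2% for 6 genes in primed LADs only, 58.0% for 61 genes in LADs of both states and 67.0% for 150 genes in neither. GATC occurred in 7 of 17, 4 of 6, 25 of 61 and 53 of 150 of these promoters, against 39.7% of all 15812 protein-coding promoters. These are values of the reference sequence, given as a description.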
